A study of Drosophila melanogaster with 8 samples.

Results

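The UDP-glycosyltransferase (UGT) genes of *D. melanogaster* were taken as every gene whose FlyBase symbol begins with Ugt, matched to the deposited tables by gene ID. There were 35 of them among the 13942 genes of the tables, and all 35 were matched and had enough reads to be tested. RNA of Malpighian tubules, the excretory organ of the fly, was sequenced from wild-type adults of a European population from the Netherlands and an African population from Zimbabwe. There were 8 libraries, with 2 biological replicates each of European males, European females, African males and African females. All flies were kept on cornmeal-molasses medium at 22 °C with 14 h of light and 10 h of dark, and the labels give their age as 2 to 4 days, whereas the methods of the study give an older range. Per the methods, a library was a pool of tubules over the isofemale lines of its population and the pooling was performed in duplicate, so the replicates show the spread between pools of the same lines and not the spread between lines.

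UGT enzymes sit in the membrane of the endoplasmic reticulum and transfer a sugar from a UDP-sugar to small fat-soluble molecules, which become more soluble and can be exported from the cell. Insect UGTs mainly use UDP-glucose, and their substrates include plant toxins, insecticides, pigments, hormones and odorants. The tubule is, with the midgut and fat body, a main organ of detoxification in the fly. In the systematic names the number gives the family and the letter the subfamily, both set by similarity of the protein sequences.

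The libraries held 19528634 to 27099855 reads on genes, 183330644 in all. Levels are given in RPKM, the reads on a gene divided by the length of its longest transcript and by the reads on all genes of the library. Between libraries RPKM also depends on library composition, and the tests used a scaling factor for it. This factor was 0.9275 to 0.9966 in African and 1.021 to 1.038 in European libraries. The RPKM values printed here are without it. Markers of the principal cells of the tubule summed to 5953 to 7088 RPKM in Europe and 7166 to 9422 RPKM in Africa. Of these, 4 of 8 were called lower in Europe and 0 higher. A large part of the sum was Uro, at 1886 to 2196 RPKM in Europe and 2571 to 4198 RPKM in Africa. CapaR went the other way without a call, at 67.3 to 73.8 RPKM in Europe and 50.1 to 65.2 RPKM in Africa. Markers of the stellate cells summed to 308 to 348 RPKM in Europe and 364 to 388 RPKM in Africa (1 of 6 lower, 0 higher). Markers of other organs were also present. Those of the fat body summed to 13.2 to 34.2 RPKM in males and 869 to 1727 RPKM in females (5 of 7 lower in males). Most of the female sum was the yolk protein genes Yp1, Yp2 and Yp3, which the study lists among its most female-biased genes. Of the other fat body markers, apolpp had 5.18 to 13.1 RPKM in males and 12.3 to 28.8 RPKM in females. Markers of the testis summed to 8.07 to 79.9 RPKM in males and 0.478 to 0.814 RPKM in females (6 of 6 higher in males). Markers of the ovary summed to 1.02 to 3.05 RPKM in males and 19.4 to 46.6 RPKM in females (3 of 4 lower in males). Those of the oenocytes summed to 28.01 to 212 RPKM in males and 20.7 to 124 RPKM in females (2 of 4 lower in males). The pheromone genes eloF and Fad2, which the study lists among its most female-biased genes, were lower in males. Cyp4g1, most of the oenocyte sum, had 27.3 to 210 RPKM in males and 16.2 to 95.8 RPKM in females. The 9 midgut markers summed to 2046 and 364 RPKM in the African male replicates 1 and 2 and to 32.5 to 116 RPKM in the other 6 libraries, with the regulator lab near 0. All the listed digestive enzyme genes had their highest level in replicate 1. In replicate 2 Amy-p (169 RPKM) and Jon65Ai (116 RPKM) were high, whereas betaTry (4.27 RPKM) was at its lowest of the 8 libraries and alphaTry (21.0 RPKM) and deltaTry (4.28 RPKM) lay within the range of the other libraries. The part of these differences in the results below was not tested. In RNA of a whole organ, fewer cells of a type, less RNA per cell and a change in the marker genes themselves cannot be told apart.

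The UGT genes ranged from abundant to barely detected transcripts. The most abundant member was Ugt35B1, first described from the antenna, with a mean of 650.4 ± 104 RPKM (SD, n = 8), and only 1.33% of all genes of the tables had a higher mean. It had 699.9 and 823 RPKM in European males, 685 and 643 RPKM in European females, 572 and 706 RPKM in African males and 596 and 479 RPKM in African females. Ugt35C1, also known as Ugt86Dd and linked to nicotine resistance in larvae, followed at 409 ± 86.2 RPKM, Ugt49B1 at 225 ± 27.4 RPKM and Ugt301D1 at 192 ± 11.95 RPKM. These 4 genes made up 79.9% of the summed RPKM of the family (1846 RPKM as a mean). Another 11 members lay between 10 and 100 RPKM and made up 17.8%. In falling order they were Ugt303B3 (92.1 RPKM), Ugt35A1 (77.8), Ugt37B1 (27.4), Ugt35E1 (22.0), Ugt37D1 (19.97), Ugt303A1 (18.9), Ugt36E1 (18.4), Ugt304A1 (15.9), Ugt302C1 (14.5), Ugt316A1 (11.6) and Ugt35E2 (10.7). The 8 members between 1 and 10 RPKM, which made up 1.89%, were Ugt36A1 (8.66), Ugt302E1 (7.94), Ugt50B3 (4.54), Ugt37A2 (3.39), Ugt303B1 (3.31), Ugt303B2 (2.79), Ugt49C1 (2.16) and Ugt37A3 (2.13). The remaining 12 had a mean below 1 RPKM and made up 0.317%, with Ugt36D1 at 0.990 RPKM the highest, followed by Ugt317A1, Ugt37C2, Ugt49B2, Ugt305A1, Ugt35D1, Ugt302K1, Ugt37A1, Ugt307A1 and Ugt37E1. The lowest were Ugt36F1, with 18 reads over all libraries, and Ugt37C1, with 12 reads, the smallest number that entered the tests. Of the 35 members, 33 had a read in every library, 21 exceeded 1 RPKM in every library and 7 stayed below 1 RPKM in every library.

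**Figure D1:**
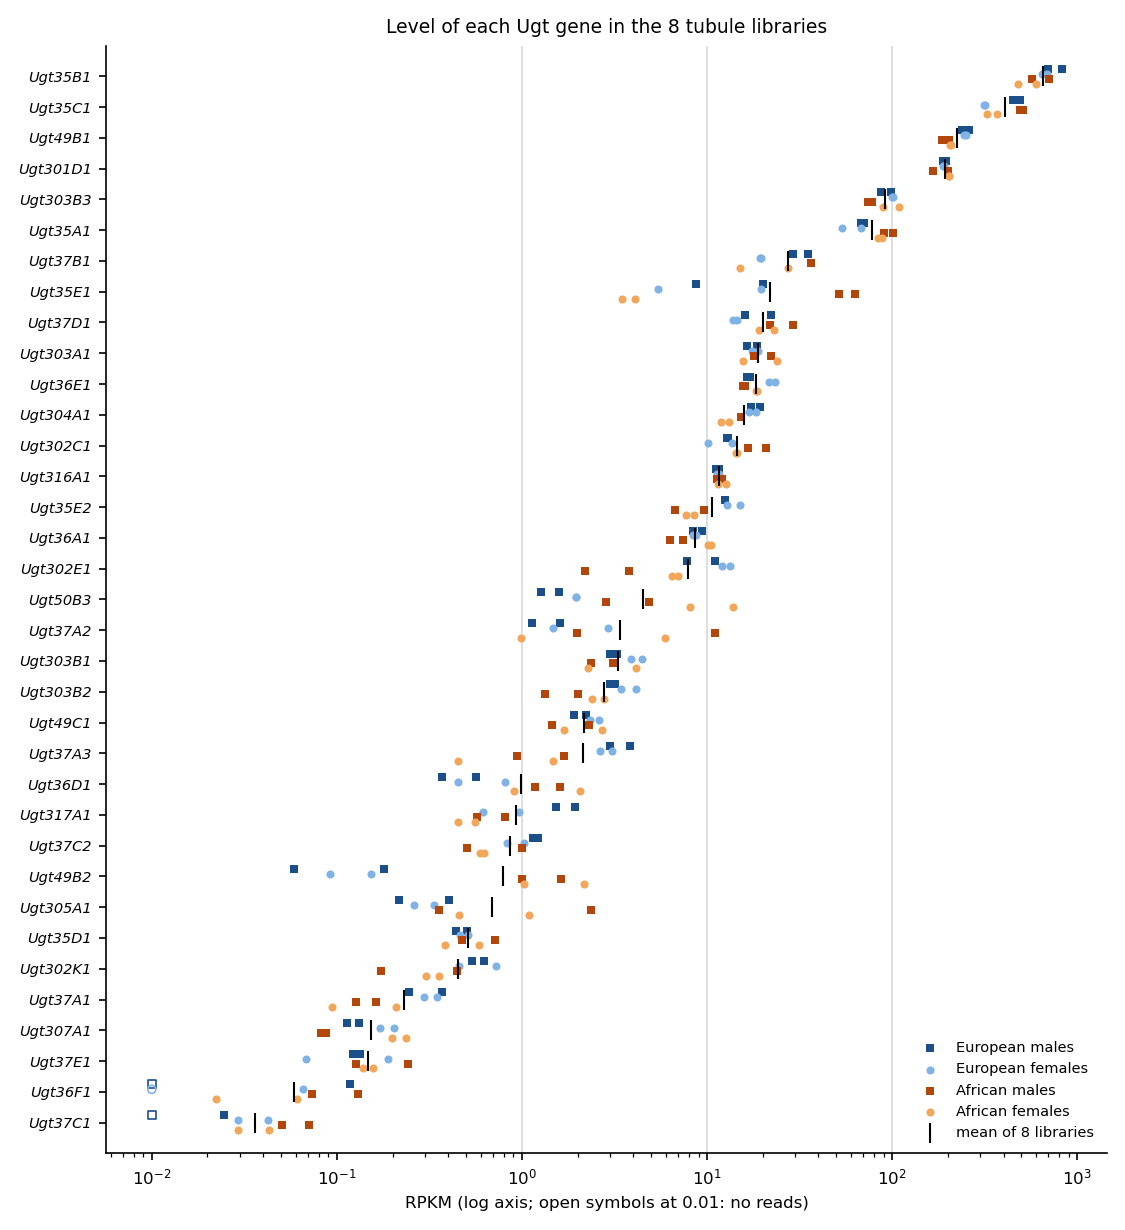
Level of each of the 35 UGT genes in RPKM (x axis, log scale) in the 8 libraries, ordered by the mean, with squares for males and circles for females of each population; open symbols at the left edge are libraries with no reads. The 4 members above 100 RPKM made up 79.9% of the summed level, and 12 members had a mean below 1 RPKM.

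The order of the levels was clear at the top and not below. Ugt35B1 was above Ugt35C1 in all 8 libraries, although their ranges overlapped. Ugt35C1 was above Ugt49B1, Ugt301D1 above Ugt303B3 and Ugt35A1 above Ugt37B1 with no overlap of the ranges. The other 31 of the 34 pairs of neighbours in the order overlapped, and only 6 of the 34 pairs kept their order in all 8 libraries.

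Among the 10 most abundant members, those called in no comparison over all 8 libraries were Ugt35B1, Ugt301D1, Ugt303B3, Ugt35E1 and Ugt303A1. Ugt301D1 had 189 and 197 RPKM in European males, 190.2 and 188 RPKM in European females, 201 and 167 RPKM in African males and 203 and 204 RPKM in African females. Its coefficient of variation of 6.21% was the second smallest of the family, after the 4.19% of Ugt316A1, which lay between 11.2 and 12.7 RPKM. Ugt303B3 had 98.3 and 86.7 RPKM in European males, 100.4 and 101 RPKM in European females, 73.7 and 78.2 RPKM in African males and 109 and 88.9 RPKM in African females. The African males were the lowest group of this gene, and the European males lay below the European females. Ugt303A1 was at 18.5 and 16.4 RPKM in European males, 18.9 and 17.6 RPKM in European females, 22.2 and 18.1 RPKM in African males and 24.0 and 15.7 RPKM in African females, with an overlap of all 4 groups. The summed family level ranged over the libraries between 1549 RPKM in the African female replicate 2 and 2082 RPKM in the European male replicate 2, and Ugt35B1 accounted for 30.1 to 39.5% of it.

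Sex differences were tested with population in the model, on log2 values scaled for library composition, with limma and Benjamini-Hochberg adjustment over the 12580 genes tested. A gene was called at an adjusted p below 0.05, and a fold change is male over female on the scale of log2(RPKM + 0.1), which understates the change of members below 1 RPKM. Of the 35 UGT genes, 2 were higher in males and 1 was lower in males, or 8.57% of the members, where 11.7% of all genes tested were called (7.62% higher in males, 4.12% higher in females). The median log2 fold change was -0.0046 over the members and 0.014 over all genes, and the median size of the change was 0.23 against 0.16 over all genes. At an unadjusted p below 0.05 there were 14 members (27.2% of all genes). The count of 3 became 1 without the European female replicate 2, and voom, a variant of limma that weights log counts, called 5 on the reads worked back from the RPKM. The scaled groups did not overlap for 2 members higher and 2 lower in males, in a background of 13.9% of genes (7.98% higher and 5.88% lower in males). The sexes also differed in markers of the fat body (5 of 7 lower in males, with Yp1, Yp2 and Yp3 among them), ovary (3 of 4 lower) and testis (6 of 6 higher). Of the oenocyte markers 2 of 4 were lower in males, but not Cyp4g1. The part of these markers was not tested.

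Ugt35C1 was male-biased. It had 493 and 448 RPKM in European males against 316 and 312 RPKM in European females, and 511 and 492 RPKM in African males against 369.7 and 327 RPKM in African females. Each male library was above each female library. The mean was 486 ± 26.9 RPKM in males and 331 ± 26.3 RPKM in females (SD, n = 4 each), for a log2 fold change of 0.58 (standard error, SE, 0.05, limma adjusted p = 0.00132). The call remained when any of the 8 libraries was left out, with log2 fold changes of 0.55 to 0.61. Tested within each population, the log2 fold change was 0.59 in Europe (adjusted p = 0.00877) and 0.57 in Africa (adjusted p = 0.0149).

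Ugt37B1 was the other male-biased member. Its values were 29.2 and 35.1 RPKM in European males against 19.5 and 19.4 RPKM in European females, and 36.7 RPKM in each library of African males against 27.5 and 15.03 RPKM in African females. The sexes did not overlap, but the African female replicate 1 came close to the lowest male library. The means were 34.4 ± 3.55 RPKM in males and 20.4 ± 5.18 RPKM in females (SD, n = 4 each), for a log2 fold change of 0.80 (SE 0.17, limma adjusted p = 0.0255). The call was lost without either African male library, either European female library or the European male replicate 2 (adjusted p = 0.0536 to 0.0774), with log2 fold changes of 0.62 to 0.95 without each library in turn.

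Ugt36E1, known from olfactory neurons, was lower in males. It had 17.1 and 16.5 RPKM in European males against 23.4 and 21.7 RPKM in European females, and 15.6 and 16.0 RPKM in African males against 18.7 and 18.4 RPKM in African females. No male library reached a female one. Markers of the olfactory organ summed to 0.393 to 0.886 RPKM in the 8 libraries, and their part was not tested. The log2 fold change of Ugt36E1 was -0.30 (SE 0.06, limma adjusted p = 0.0207), with -0.41 in Europe (adjusted p = 0.0203) and -0.19 in Africa (adjusted p = 0.189). Without any of the 4 European libraries the call was lost (adjusted p = 0.0516 to 0.0663). In the release 6 annotation 48 of its 1903 exon bases lie opposite an exon of CG17597, a gene at 119 RPKM that was itself higher in males (log2 fold change 0.23, adjusted p = 0.0301), and whether reads were counted by strand is not given in the sources used here.

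Several members came close to a call for sex. Ugt302E1 had a log2 fold change of -0.80 (adjusted p = 0.0540) and Ugt307A1, with 42 reads in all, one of -0.56 (adjusted p = 0.0684) with no overlap between the sexes and 11 exon bases opposite the growth factor gene Pvf2. Ugt317A1 had 0.74 (adjusted p = 0.0769), Ugt50B3 -0.93 (adjusted p = 0.0858) and Ugt37D1 0.36 (adjusted p = 0.0939). With the replicate number as a block Ugt37D1 passed (adjusted p = 0.0491). The largest fold change between the sexes was that of Ugt35E1, at 2.15 (SE 0.78, adjusted p = 0.124), which passed as the average over the interaction model (adjusted p = 0.0258).

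Population differences were tested in the same way, with sex in the model and Europe over Africa as the fold change. The populations also differed in markers of the principal cells, and their part was not tested. Of these markers 4 of 8 were lower in Europe, by the test on scaled values. For CapaR, which was not called, each European library was above each African one in RPKM without the scaling factor. With the factor the CapaR values of the populations overlapped. Of the 35 members, 6 were higher and 7 lower in Europe, or 37.1%, where 11.9% of all genes tested were called (6.53% higher in Europe, 5.39% higher in Africa). The median size of the log2 fold change was 0.31 in the members and 0.17 over all genes, whereas the median itself was -0.10 in the members and 0.0057 over all genes. At an unadjusted p below 0.05 there were 19 members (27.9% of all genes). The scaled values of the populations did not overlap for 6 members in each direction, in a background of 15.6% of genes (7.87% higher and 7.76% lower in Europe). The number of calls moved with single libraries. It was 7 and 9 without the African female replicates 1 and 2, 10 and 8 without the African male replicates 1 and 2, 7 and 5 without the European female replicates 1 and 2, and 6 and 5 without the European male replicates 1 and 2.

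**Figure D2:**
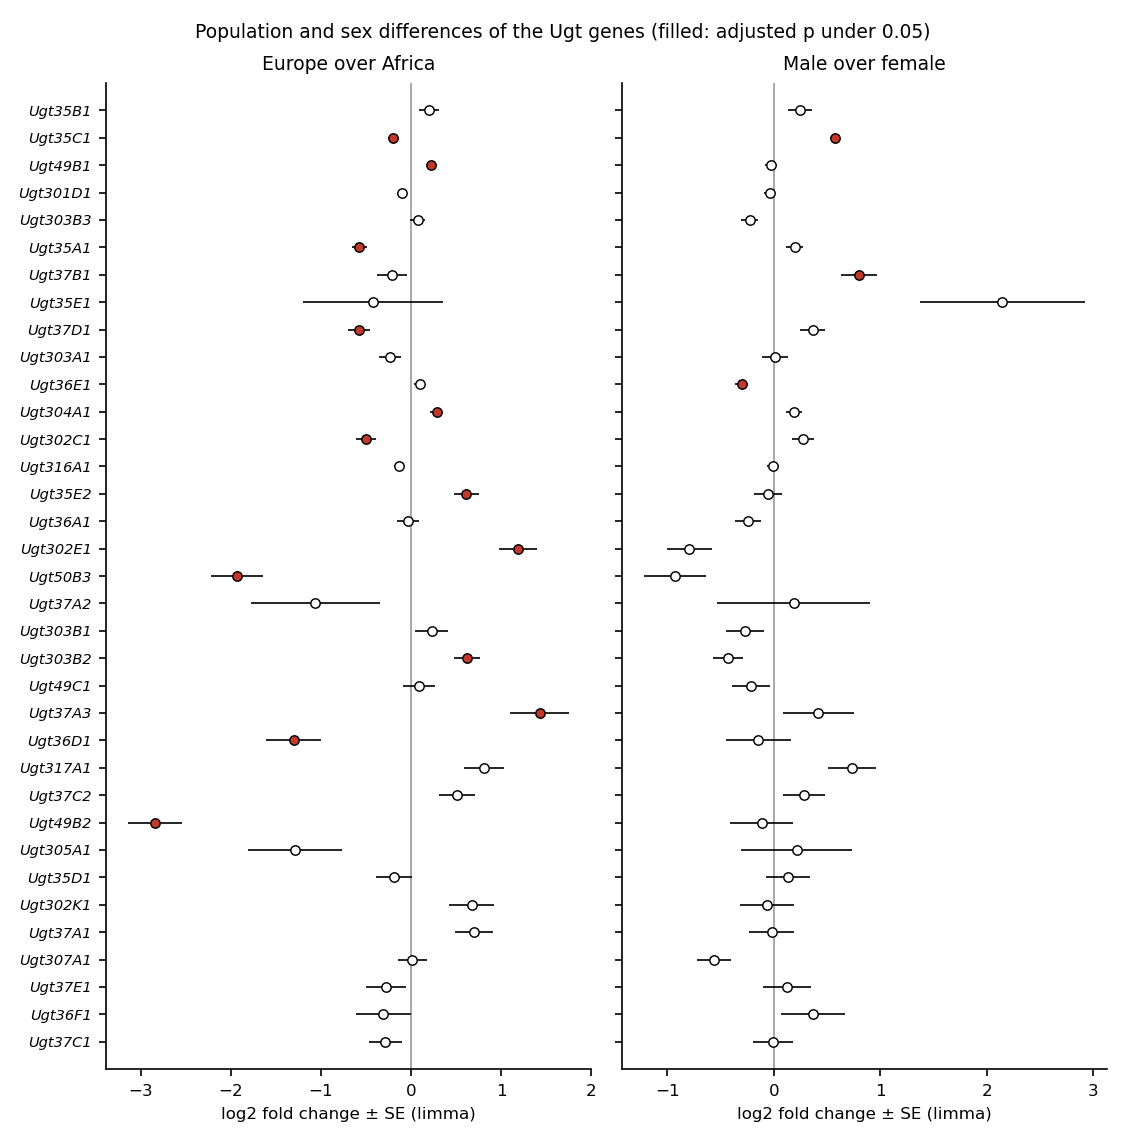
Log2 fold change of each UGT gene (points) with its standard error (bars) from limma, for Europe over Africa on the left and male over female on the right, in order of mean level from top to bottom; filled points passed an adjusted p of 0.05. The population panel has 6 filled points above 0 and 7 below, between -2.84 and 1.43, and the sex panel has 3.

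Ugt49B2, a member of low level, was lower in Europe. This gene, named CG6475 in the study, heads the study's list of Africa-biased genes, there with a larger log2 fold change from a test on read counts. It had 0.0590 and 0.179 RPKM in European males against 1.62 and 1.01 RPKM in African males, and 0.0913 and 0.153 RPKM in European females against 2.15 and 1.02 RPKM in African females. The highest European library lay far below the lowest African one. The means were 0.121 ± 0.0551 RPKM in Europe and 1.45 ± 0.549 RPKM in Africa (SD, n = 4 each), for a log2 fold change of -2.84 (SE 0.30, limma adjusted p = 0.0016), and 239 reads lay behind all 8 values. This was the largest population difference of the called members, but with a pseudocount of 1 RPKM it was -1.13, smaller in size than the -1.53 of Ugt50B3, and with 0.01 RPKM it was -3.60. The call remained without each library in turn, and the fold change was near the same within males (-2.79, adjusted p = 0.0222) and within females (-2.90, adjusted p = 0.0230). Within each sex the call did not pass with voom on the reads (adjusted p = 0.0612 in males and 0.0656 in females).

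Ugt50B3, of a UGT family that occurs across insect orders, was also lower in Europe. Its levels were 1.27 and 1.59 RPKM in European males against 2.86 and 4.85 RPKM in African males, and 1.95 and 1.96 RPKM in European females against 13.7 and 8.08 RPKM in African females. The populations did not overlap, and the African females were the highest group. On the log2 scale the difference was -1.93 (SE 0.29, limma adjusted p = 0.00693), with -2.44 in females (adjusted p = 0.0171) and -1.43 in males (adjusted p = 0.0653). The difference between these, 1.01 on the log2 scale, was not called (adjusted p = 0.713). The population call remained without each library in turn. The gene overlaps TpnC4, a troponin gene on the opposite strand at 2.60 RPKM, but shares 0 exon bases with it.

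Ugt35A1, an abundant member, was also lower in Europe. It had 67.8 and 70.3 RPKM in European males against 90.4 and 101 RPKM in African males, and 68.0 and 53.7 RPKM in European females against 88.4 and 83.7 RPKM in African females. The ranges of the populations were apart. The means were 64.9 ± 7.61 RPKM in Europe and 90.8 ± 7.10 RPKM in Africa (SD, n = 4 each), for a log2 fold change of -0.57 (SE 0.08, limma adjusted p = 0.0056) that was called without each library in turn. Within the sexes the fold change was -0.57 in males (adjusted p = 0.0537) and -0.58 in females (adjusted p = 0.0611), just short of a call in each.

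The other members lower in Europe were Ugt36D1, Ugt37D1, Ugt302C1 and Ugt35C1. Ugt36D1 had 0.561 and 0.369 RPKM in European males against 1.61 and 1.18 RPKM in African males, and 0.810 and 0.450 RPKM in European females against 0.901 and 2.05 RPKM in African females. The populations were apart, though the European female replicate 1 and the African female replicate 1 nearly met. Limma gave a log2 fold change of -1.30 with a standard error of 0.30 (adjusted p = 0.0349), or -0.68 with a pseudocount of 1 RPKM (adjusted p = 0.0431). The call was lost with the replicate block (adjusted p = 0.0514) and without any of 6 libraries, namely the African female replicate 2, either African male, the European female replicate 2 or either European male (adjusted p = 0.0741 to 0.101). Ugt37D1 had 22.2 and 16.1 RPKM in European males against 29.1 and 22.0 RPKM in African males, and 13.8 and 14.6 RPKM in European females against 23.1 and 19.0 RPKM in African females. Within females the populations were apart, and within males they overlapped slightly. Its log2 fold change was -0.58 (SE 0.12, limma adjusted p = 0.0221), which did not pass without the African female replicate 1, either European female or the European male replicate 2 (adjusted p = 0.0544 to 0.0674).

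Ugt302C1 had 12.9 RPKM in each European male library against 21.0 and 16.7 RPKM in African males, and 13.6 and 10.1 RPKM in European females against 14.4 and 14.6 RPKM in African females. The European libraries were all below the African ones, by a small margin in females. On the log2 scale the difference was -0.50 (SE 0.11, limma adjusted p = 0.0265). The call did not pass without the African female replicate 2, the African male replicate 2, the European female replicate 2 or either European male (adjusted p = 0.0549 to 0.0800). For Ugt35C1, whose values by library are given with the sex comparison, the difference between the populations was smaller than that between the sexes. Its log2 fold change was -0.21 (SE 0.05, adjusted p = 0.0296, limma). The populations overlapped, as each held a high male and a low female pair of libraries. Without a factor for library composition the fold change was -0.12 (adjusted p = 0.163), and the call was also lost without an intensity trend (adjusted p = 0.0787) and without the African female replicate 1, the African male replicate 2, either European female or the European male replicate 2 (adjusted p = 0.0647 to 0.0866).

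**Figure D3:**
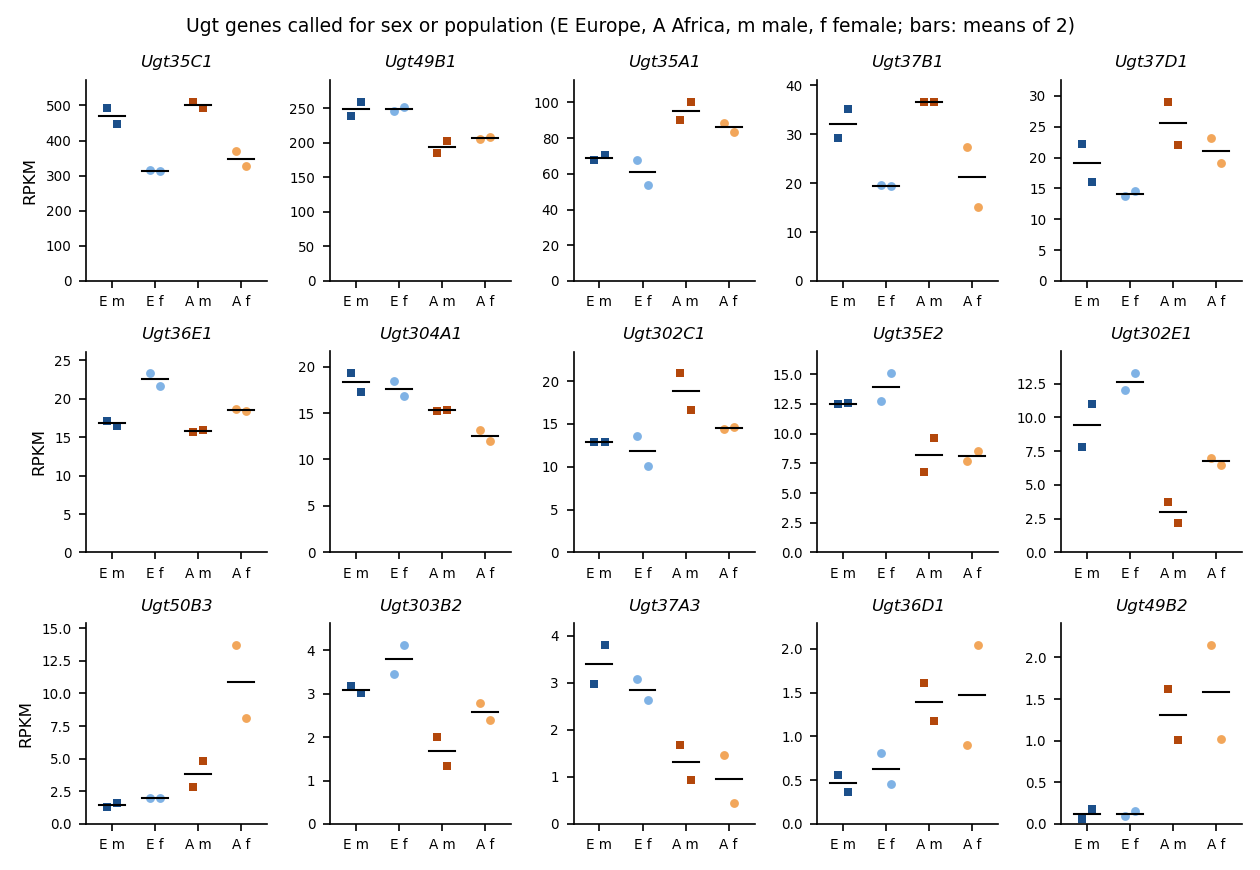
RPKM (y axis, from 0) of the 15 UGT genes called for sex or population in the 4 groups, with 1 point per library and a bar at the mean of the 2 replicates. Ugt35C1 shows higher males within both populations, and Ugt49B2 shows European libraries of at most 0.179 RPKM beside African libraries of at least 1.01 RPKM.

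Among the 6 members higher in Europe, Ugt302E1 had the smallest adjusted p. It had 7.82 and 11.0 RPKM in European males against 3.77 and 2.20 RPKM in African males, and 12.01 and 13.3 RPKM in European females against 7.01 and 6.46 RPKM in African females. The populations were apart, and within each population each female library was above each male one. Limma gave a log2 fold change of 1.19 with a standard error of 0.21 (adjusted p = 0.0135), and it was called without each library in turn. It was 1.55 in males (adjusted p = 0.0220) and 0.83 in females (adjusted p = 0.143), and the difference of 0.72 was not called (adjusted p = 0.723).

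Ugt37A3 was also higher in Europe. It was at 2.98 and 3.81 RPKM in European males against 1.68 and 0.941 RPKM in African males, and at 3.07 and 2.63 RPKM in European females against 1.47 and 0.449 RPKM in African females. The populations were apart, with the African replicate 2 of each sex the lowest. Its log2 fold change was 1.43 (SE 0.33, limma adjusted p = 0.0352), the largest of these 6 members, but 0.93 with a pseudocount of 1 RPKM (adjusted p = 0.0220), below the 1.04 of Ugt302E1 with it. The call did not pass without an intensity trend in the variance (adjusted p = 0.0551) or without the African male replicate 2 or any of the 4 European libraries (adjusted p = 0.0691 to 0.0953). Ugt35E2 had 12.5 and 12.6 RPKM in European males against 6.74 and 9.61 RPKM in African males, and 12.8 and 15.1 RPKM in European females against 7.70 and 8.55 RPKM in African females. The ranges did not overlap. On the log2 scale the difference was 0.62 (SE 0.13, limma adjusted p = 0.0280), and the call was lost without an intensity trend (adjusted p = 0.0503) and without either African female or any European library (adjusted p = 0.0618 to 0.0851).

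Ugt303B2 had 3.18 and 3.01 RPKM in European males against 2.01 and 1.33 RPKM in African males, and 3.45 and 4.14 RPKM in European females against 2.78 and 2.40 RPKM in African females. The populations were apart, by little in males of Europe against females of Africa. Limma gave a log2 fold change of 0.62 with a standard error of 0.14 (adjusted p = 0.0329), and the call was lost without either African female, the European female replicate 2 or either European male (adjusted p = 0.0505 to 0.0972).

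Ugt304A1 and Ugt49B1 were higher in Europe by a small amount and were near the threshold. Ugt304A1 had 19.3 and 17.3 RPKM in European males against 15.2 and 15.3 RPKM in African males, and 18.4 and 16.8 RPKM in European females against 13.1 and 11.9 RPKM in African females. The deposited values did not overlap, whereas those scaled for composition did. Its log2 fold change was 0.29 (SE 0.07, limma adjusted p = 0.0479), and the call was lost with the replicate block (adjusted p = 0.0581), a pseudocount of 1 RPKM, no minimum of reads or no intensity trend (adjusted p = 0.0506 to 0.0859), and without either African female, the African male replicate 1, either European female or the European male replicate 1 (adjusted p = 0.0798 to 0.119). Ugt49B1 had 239 and 260.0 RPKM in European males against 185 and 203 RPKM in African males, and 246 and 251 RPKM in European females against 206 and 209 RPKM in African females. Each European library was above each African one. At a log2 fold change of 0.23 (SE 0.06, limma adjusted p = 0.0491) this was the weakest call, and leaving out any of the 8 libraries ended it (adjusted p = 0.0527 to 0.148). It was also lost with median-of-ratios scaling, either other pseudocount, no minimum of reads, no intensity trend or the average over the interaction model, or 6 of 10 alternatives (adjusted p = 0.0507 to 0.106). Its exons share 90 bases with CG44245 on the opposite strand, a gene at 24.4 RPKM with no call for population (log2 fold change 0.08, adjusted p = 0.347).

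Members that missed the call for population included Ugt317A1, at a log2 fold change of 0.81 (adjusted p = 0.0590), which passed with the replicate block (adjusted p = 0.0432), and Ugt37A1 at 0.69 (adjusted p = 0.0778), with scaled values that did not overlap. The most abundant gene, Ugt35B1, had 0.20 (adjusted p = 0.284). In all, 20 of the 35 members were called for neither sex nor population. Ugt35C1 was the only member called for each of them.

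The study asked whether sex bias differs between the populations, and for this it used one-factor tests within each population or sex. Here an interaction term was tested instead, the male over female change in Europe minus that in Africa. With limma, 0 of the 35 members passed, where 7 genes or 0.0556% of those tested did. At an unadjusted p below 0.05 there were 2 members (7.599% of all genes), and voom on the reads called 0. These members were Ugt35E1, at -3.57 (SE 0.87, adjusted p = 0.376), and Ugt36A1, at 0.60 (SE 0.12, adjusted p = 0.281). Ugt36A1, also called Dorothy and known from pericardial nephrocytes, had 9.34 and 8.43 RPKM in European males against 8.67 and 8.44 RPKM in European females, and 7.41 and 6.34 RPKM in African males against 10.2 and 10.5 RPKM in African females. The sexes overlapped in Europe and were apart in Africa. Of its 2303 exon bases, 400 lie opposite an exon of CG15418, a gene at 1.42 RPKM with no call for either factor.

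Within single populations and sexes the calls were few. For sex within Africa 3 members were called (background 3.46%), namely Ugt35C1, Ugt35E1 and, lower in males, Ugt36A1 at -0.54 (adjusted p = 0.0289). For sex within Europe there were Ugt35C1 and Ugt36E1 (background 6.04%), to which the replicate block added Ugt317A1 (log2 fold change 1.06, adjusted p = 0.0464). For population within females Ugt49B2, Ugt50B3 and Ugt304A1 were called (background 3.87%), Ugt304A1 at 0.42 (adjusted p = 0.0499, and 0.0569 with the replicate block). For population within males the calls were Ugt302E1 and Ugt49B2 (background 5.2%), and Ugt317A1 passed with the block (log2 fold change 1.14, adjusted p = 0.0425). The calls of Ugt36A1 within Africa and of Ugt304A1 within females were each lost when any of the 8 libraries was left out. Neither passed in a one-factor fit, and Ugt304A1 did not pass with voom. Most of these counts fell to 0 when a library of the groups compared was left out. That held for sex within Africa without the African female replicate 2, for sex within Europe without any European library, for population within females without the African female replicate 1 or either European female, and for population within males without either European male. The count for population within females was 1 without the African female replicate 2, and that for population within males was 4 without the African male replicate 1 or the European female replicate 1.

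Ugt35E1 was the most uneven of the 10 most abundant members, with a coefficient of variation of 104% over the 8 libraries. It had 8.72 and 20.1 RPKM in European males against 19.5 and 5.45 RPKM in European females, and 63.3 and 51.6 RPKM in African males against 4.10 and 3.45 RPKM in African females. The African males were above all other libraries, and in Europe the replicates of each sex differed more than the sexes did. The log2 fold change for sex was 0.36 within Europe (SE 0.61, adjusted p = 0.824, limma), whereas within Africa it was 3.93 (SE 0.61, adjusted p = 0.0289), which was called.

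The African males were also the libraries with the most midgut marker RNA, but unequally, with 2046 RPKM in replicate 1 and 364 RPKM in replicate 2. Without replicate 1 the fold change of Ugt35E1 within Africa was 3.83 (adjusted p = 0.0889), and without replicate 2 it was 4.02 (adjusted p = 0.0563), and neither passed. The part of midgut RNA in these values was not tested.

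In Ugt37A2 and Ugt305A1 the replicates of the African groups differed widely. Ugt37A2 had 1.13 and 1.61 RPKM in European males and 2.93 and 1.47 RPKM in European females, against 11.1 and 1.98 RPKM in African males and 5.94 and 0.986 RPKM in African females. Ugt305A1 had 0.402 and 0.217 RPKM in European males and 0.337 and 0.261 RPKM in European females, against 2.38 and 0.355 RPKM in African males and 1.09 and 0.455 RPKM in African females. In each gene the African replicate 1 of both sexes was high and replicate 2 was near the European libraries. The summed midgut markers were also higher in replicate 1 of each African sex, at 2046 and 364 RPKM in males and 116 and 44.4 RPKM in females. The African male replicate 2 exceeded the African female replicate 1 in this sum and in Amy-p, Jon65Ai, Jon65Aiv, Mal-A1 and Mal-A6. It was below that library in alphaTry, betaTry, deltaTry and lab, and in both Ugt37A2 and Ugt305A1. The part of the midgut markers was not tested. The population difference was not called for Ugt37A2 (log2 fold change -1.06, adjusted p = 0.387) or Ugt305A1 (-1.29, adjusted p = 0.161).

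**Figure D4:**
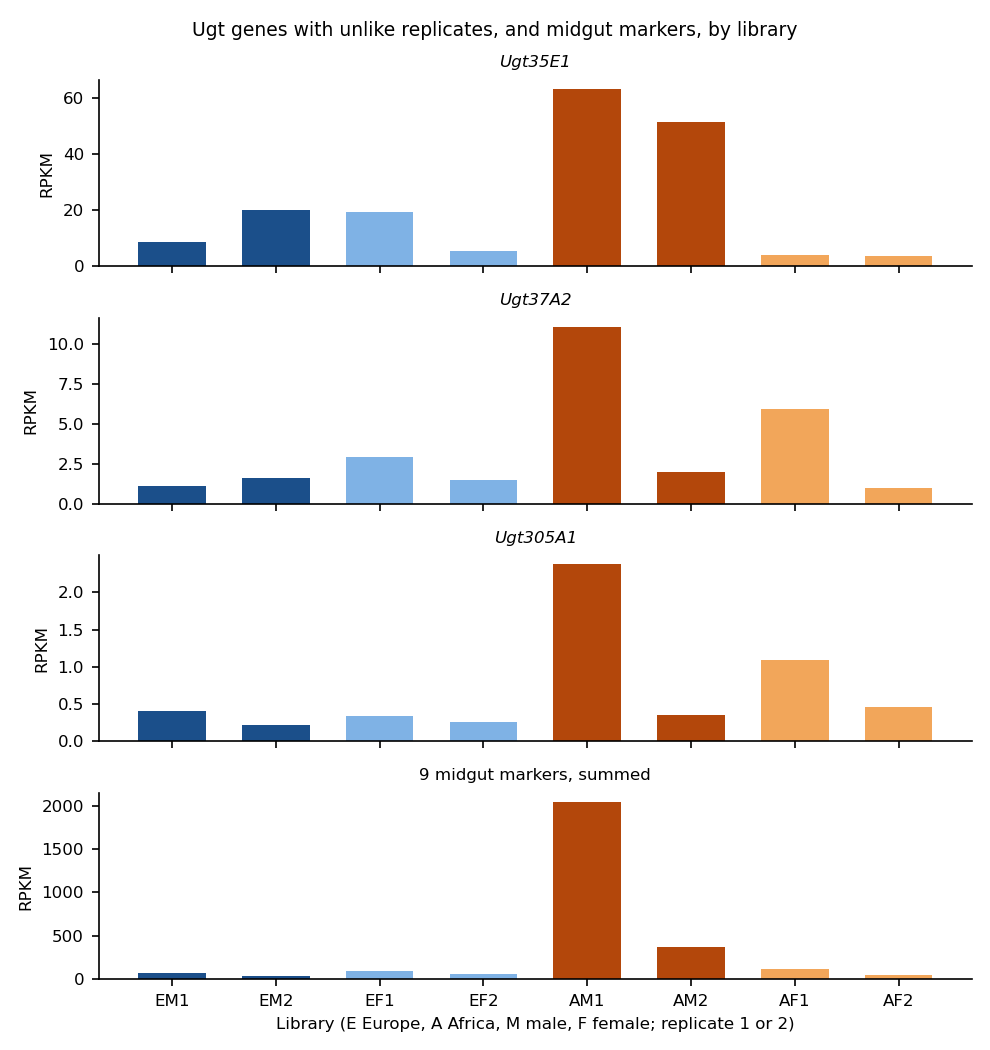
RPKM (y axes, from 0) of Ugt35E1, Ugt37A2 and Ugt305A1 and the summed RPKM of 9 midgut markers in each library, with Europe to the left of Africa and males to the left of females within each. Ugt35E1 is high in both African male libraries, whereas Ugt37A2 and Ugt305A1 are highest in replicate 1 of the African males, the library with 2046 RPKM of midgut markers.

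The replicates of the family differed most in African males by the median. The median size of the log2 difference between the replicates of a group was 0.16 in European males and 0.16 in European females, against 0.31 in African males and 0.21 in African females, whereas over all genes it was 0.15, 0.15, 0.19 and 0.16 in the same groups. Differences of more than 1 on the log2 scale were seen for Ugt35E1 and Ugt36F1 in European males, Ugt35E1 in European females, Ugt37A2 and Ugt305A1 in African males, and Ugt37A2, Ugt37A3, Ugt36D1 and Ugt305A1 in African females. These were 2, 1, 2 and 4 of the 35 members, where 5.63%, 5.21%, 10.4% and 6.59% of all genes differed as much in the same groups, so this measure did not set the males of the populations apart.

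Many UGT genes lie next to each other on the chromosomes, with names and order taken from RefSeq. Of the members, 17 were on arm 3R, 11 on 2L, 5 on 2R, 2 on 3L and 0 on the X chromosome. When members with at most 10 protein-coding genes between them were joined, 23 fell into 6 clusters and 12 stood alone. The cluster of 10 genes on 3R, which held most of the former Ugt86D genes, made up 66.5% of the summed RPKM of the family. In gene order it consisted of Ugt35C1, Ugt302K1, Ugt302E1, Ugt302C1, Ugt35E1, Ugt35E2, Ugt35B1, Ugt35A1, Ugt304A1 and Ugt303A1, with mean levels of 0.453 RPKM for Ugt302K1 up to 650.4 RPKM for Ugt35B1 in genes that nearly adjoin.

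Neighbours in this cluster did not move together between the populations. Of its 10 genes, Ugt302E1, Ugt35E2 and Ugt304A1 were higher in Europe, Ugt35C1, Ugt302C1 and Ugt35A1 were lower, and 4 were not called. Ugt302E1 and Ugt302C1 adjoin and belong to the same family, with log2 fold changes of 1.19 and -0.50. The sex call of the cluster was that of Ugt35C1, at its end. The other clusters made up 12.3% of the summed RPKM (Ugt49B1 and Ugt49C1), 5.32% (Ugt303B3, Ugt303B1 and Ugt303B2), 1.14% (Ugt37C2, Ugt37E1 and Ugt37D1), 1.05% (Ugt36F1, Ugt36D1 and Ugt36E1) and 0.299% (Ugt37A2 and Ugt37A3), and in each of these a single member was called for population. In the Ugt303B cluster, Ugt303B3 was at 92.1 RPKM beside Ugt303B1 at 3.31 RPKM and Ugt303B2 at 2.79 RPKM. Neighbours that arose by duplication can share sequence, and how reads that match several members were counted is not given in the sources used here, so values of near-identical stretches are uncertain.

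**Figure D5:**
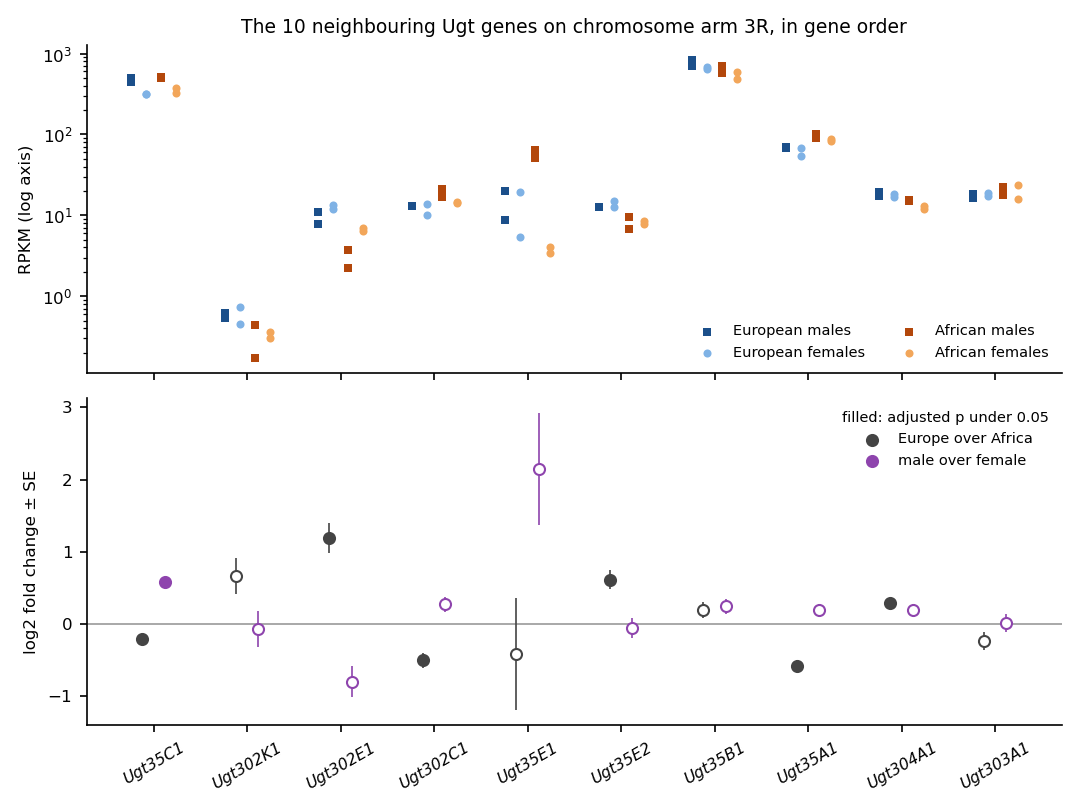
The 10 neighbouring UGT genes on arm 3R in gene order (x axis), with RPKM in each library on a log scale above and log2 fold change ± standard error below, filled where the adjusted p was below 0.05. Ugt302E1 and Ugt302C1 lie next to each other with population fold changes of 1.19 and -0.50, and Ugt35C1 is filled for both contrasts.

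The genes that supply UGTs with their donor sugar were well expressed, and some changed with sex or population. Of 14 genes listed for making and carrying UDP-sugars, 12 were found. For sex 4 were higher and 0 lower in males (33.3%, beside 11.7% of all genes tested). These were Hex-A at a limma log2 fold change of 0.55 (adjusted p = 0.00197) and Hex-C at 0.33 (adjusted p = 0.0162), which encode hexokinases. The others were Galk at 0.49 (adjusted p = 0.0225) and Galt at 0.23 (adjusted p = 0.0118), which act in galactose use. For population 2 were higher and 3 lower in Europe (41.7%, beside 11.9% of all genes tested). Of these sgl, the gene of UDP-glucose dehydrogenase, which turns UDP-glucose into UDP-glucuronate, had 201 ± 14.7 RPKM in Europe and 106 ± 10.7 RPKM in Africa (SD, n = 4 each; log2 fold change 0.84, adjusted p = 0.000244). The UDP-sugar transporter gene frc was at 0.26 (adjusted p = 0.0299), Pgm1, the gene of a phosphoglucomutase, at -0.40 (adjusted p = 0.000888), Hex-A at -0.47 (adjusted p = 0.00163) and Galt at -0.25 (adjusted p = 0.00676). UGP, which encodes the enzyme that makes UDP-glucose, was at 443 ± 34.3 RPKM in Europe and 496 ± 28.6 RPKM in Africa and was not called (adjusted p = 0.0734). The most abundant of the list was awd, a nucleoside diphosphate kinase gene, at 760.3 RPKM.

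Of 9 regulators of detoxification genes, 1 was called for each factor (11.1%, beside 11.7% of all genes tested for sex and 11.9% for population). Keap1, whose product holds back the activator Cnc, was higher in males (log2 fold change 0.33, adjusted p = 0.0183) and lower in Europe (-0.25, adjusted p = 0.0475), and the population call was lost under 5 of 10 alternatives (no composition factor, a pseudocount of 1 RPKM, no minimum of reads, no intensity trend and the average over the interaction model, adjusted p = 0.0505 to 0.0843). The gene of its target, cnc, was at 50.5 RPKM with fold changes of 0.00 and 0.03, and maf-S, the gene of the partner of Cnc, was at 83.6 RPKM and was not called. Among other conjugating enzymes, the sulfotransferase gene St3 was lower in Europe, at 46.0 ± 2.31 RPKM against 70.5 ± 2.33 RPKM in Africa (SD, n = 4 each; log2 fold change -0.70, adjusted p = 0.000641), the only call for population among 4 such genes, with 0 for sex. Of 5 ABC exporters 3 were higher in males (60%), namely MRP at 0.34, Mdr49 at 0.60 and Mdr65 at 1.08. Another comparison, that of the populations, had 2 lower in Europe (40%), namely rdog at -0.43 and Mdr65 at -1.23. Some calls in these lists were lost when a single library was left out. The sex call of Hex-C was lost without 2 of the 8 libraries in turn, Galk without 3, frc without 6, Keap1 without 5 for sex and 7 for population, and Mdr65 without 7 for sex and 4 for population (adjusted p = 0.0511 to 0.122 over these). The sex call of Mdr65 was also lost with the replicate block (adjusted p = 0.0560) and with a pseudocount of 1 RPKM, no intensity trend or the average over the interaction model (adjusted p = 0.0559 to 0.0734). Without an intensity trend the population calls of frc (adjusted p = 0.0732) and Mdr65 (adjusted p = 0.0506) did not pass.

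Beside the UGT genes with 2 higher and 1 lower in males (8.57%), the 35 glutathione S-transferase genes had 11 higher and 0 lower in males (31.4%). The 80 tested cytochrome P450 genes had 19 higher and 4 lower (28.8%), where 11.7% of all genes tested were called. For population the glutathione S-transferases had 5 higher and 8 lower in Europe (37.1%) and the P450 genes 13 higher and 11 lower (30%). The UGT genes had 6 and 7 (37.1%), where 11.9% of all genes tested were called. The median log2 fold change for sex was -0.0046 in the UGT genes, 0.34 in the glutathione S-transferases and 0.19 in the P450 genes. These are descriptions, and the differences between the families were not tested.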

How the data were processed

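Single-end reads of 8 poly-A libraries, run together on a single lane per the labels, were mapped by the authors with NextGenMap to a FlyBase transcriptome of genome release 5 and assigned to genes. The deposited unit is RPKM over the longest transcript, with no factor for library composition. RPKM times length was a whole multiple of a step per library in 100% of values (tolerance 0.01 read), so reads were worked back and used for a minimum of 12 reads in all, for scaling by trimmed mean of M values (TMM, trims of 30% and 5%) and for voom. The authors used DESeq2 with both factors. Here log2(RPKM/TMM + 0.1) was fitted with limma 3.58.1 (R 4.3.3, moderated with an intensity trend), with Benjamini-Hochberg adjustment over 12580 genes. This fit was chosen because the deposited unit is RPKM. The reads worked back would also allow a count model such as DESeq2, which was not run. Sex and population were tested in an additive model, the interaction with their product, and effects within a population or sex as contrasts of 4 group means over all 8 libraries. Same-numbered replicates deviated together (r of 0.137 to 0.468 over 9785 genes for the 6 pairs of groups). The main fits did not pair them, and a fit with a replicate block was tried as an alternative. Replicate 1 had fewer reads than replicate 2 in each group, so shared deviations need not come from a pairing of the samples. Names came from the gene table for 13584 genes by ID and 348 by CG number, with 10 unnamed. Overlaps of exons were read from the Ensembl annotation of release 6, and no coordinates are given. The UGT genes, lists and tests were chosen with earlier results of these data known. Full values are given for members called for sex, population or interaction and for the 10 of highest mean, and other members are summarised; list genes are named where called, among the highest, or where a UGT result turns on them. Members near a threshold or with unlike replicates were named after their values were seen. The script was tested on simulated data. Alternatives were other scalings, pseudocounts of 0.01 and 1, no minimum and a minimum of 100 reads, voom, no trend, the block, an average over the interaction model, one-factor fits, and each library left out. Protein and promoter sequences were not analysed here.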

Additional observations from a re-analysis of the deposited data

Results flagged for a closer look

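In 7 cases a UGT gene had a library far from the 3 others of its sex or population by Dixon's test. Of the 140 groups of 4 libraries tested chance flags about 1 in 20, so the count is about what chance gives. Each group also mixed both populations or both sexes. Ugt301D1 was at 167 RPKM in the African male replicate 2, with the nearest other African library at 201 RPKM. Ugt35A1 was at 53.7 RPKM in the European female replicate 2 (nearest European library 67.8 RPKM), and Ugt35E2 was at 15.1 RPKM in the same library (nearest 12.8 RPKM). Ugt35E1 was at 19.5 RPKM in the European female replicate 1, with the nearest female library at 5.45 RPKM. The other 3 cases were in the African male replicate 1 against the other male libraries, with Ugt37A2 at 11.1 RPKM (nearest 1.98 RPKM), Ugt305A1 at 2.38 RPKM (nearest 0.402 RPKM) and Ugt37E1 at 0.244 RPKM (nearest 0.133 RPKM, from 43 reads over all libraries). That library also held the highest sum of midgut markers, 2046 RPKM, and its part in these values was not tested.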

How the results depend on the processing

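No result reversed under any alternative run. The 13 population calls became 8 without an intensity trend, and between 5 and 10 without a single library. The number of calls was 11 to 14 under the other settings. The 3 sex calls became 5 with voom and 5 with the average over the interaction model, and 1 to 3 without a single library. Within Africa the 3 sex calls became 1 in a one-factor fit (0 to 2 without a library), and the 2 within Europe ranged from 0 to 3 without a library. Within females the 3 population calls became 1 with voom (0 to 4 without a library), and within males the 2 calls became 0 in a one-factor fit (0 to 4 without a library). For the interaction 0 members passed under each setting. Whether the replicate numbers pair the samples is not given. The replicate block gave 4 calls for sex and 12 for population. It changed no other UGT call than those given with Ugt37D1, Ugt304A1, Ugt36D1 and Ugt317A1. Among the named genes of the other lists it ended the sex call of Mdr65 (adjusted p = 0.0560) and no other call for sex or population over all 8 libraries. Causes were not tested. A group left with a single library was assumed to vary like the others. Members below 1 RPKM rest on few reads, 12 to 43 for the lowest 4, and differences in them may not be detectable at this depth.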
